A study of Mus musculus with 12 samples.

Results

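The genes described here were 7 genes known from nerve cells and measured in whole mouse oviduct: Syn2, Synpr, Slc6a2, Rtn1, Pak3, Ntrk2 and Ntrk3. They were chosen by symbol out of 18194 genes that the probe annotation names by 1 symbol, and each came from the gene lists that the study itself drew from these arrays, so the differences between groups below were known when the genes were picked. All values are therefore given as a description and no test of the 7 genes is offered as evidence.

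Oviductal RNA was measured on 12 Affymetrix mouse arrays, 3 for each of 4 groups of immature females: PMSG-treated ESR1KO, PMSG-treated WT, ESR1KO and WT. ESR1KO mice lacked both copies of the gene for estrogen receptor-α (ESR1-/-, with or without ZP3Cre), and the mice called WT were their siblings with 1 floxed and 1 deleted copy (ESR1flox/-, with or without ZP3Cre), all on C57BL/6, with Cre driven by the oocyte promoter Zp3 in the mothers. Untreated mice were 23 days old, and PMSG (pregnant mare serum gonadotropin, which makes ovarian follicles grow and secrete estradiol) was given as 5 IU at that age, 48 h before collection, so that age and PMSG cannot be told apart. Each array held RNA pooled from 3 to 4 mice, and replicates came from different mice.

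Neurons store transmitter in synaptic vesicles, release it at the synapse, and clear it again through transporters in their own membrane. Neurotrophins are secreted proteins that act on receptor tyrosine kinases of the Trk family and are best known for keeping neurons alive and shaping their branches. Nerves of the sympathetic system that use norepinephrine supply the oviduct and its muscle, but several of these genes are also transcribed in cells that are not neurons.

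The values are log2 expression signals, in which 1 unit is a doubling. Signals under 4 were taken as near background, and 41.5% to 42.3% of the probe sets on each array lay there. A probe set is a group of short probes for 1 transcript region. The table gives names that hold for the 3 untreated ESR1KO arrays only, whose signals correlated with those of the other 9 arrays at Pearson r between -0.15 and -0.12 row by row, against 0.98 to 0.99 among themselves. The other 9 arrays share another row order, and 2000 probe sets were aligned across all 12 arrays through the study's own gene lists, 1 probe set for each of the 7 genes. Array medians lay between 5.63 and 5.75. PMSG-treated WT replicate 3 stood apart, with 10.9% of its probe sets over 2-fold from the mean of the other 2 arrays of its group, against 0.83% to 5.84% for the other 11 arrays. Esr1 itself was measured at 10.11, 10.62 and 10.56 in PMSG-treated ESR1KO, against 12.62, 12.82 and 12.21 in PMSG-treated WT, and at 10.42, 12.13 and 11.05 in ESR1KO, against 12.94, 12.92 and 13.05 in WT. ESR1KO was lower in both pairs with no overlap, but untreated ESR1KO replicate 2 lay nearest to WT. Whether this probe set lies inside the deleted part is not known here, so that it does not check the labels.

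Syn2 encodes synapsin II, a phosphoprotein on the outer face of synaptic vesicles that tethers them to the cytoskeleton. Its probe set 1435511_at gave 2.63, 2.53 and 2.71 in PMSG-treated ESR1KO, against 9.27, 9.61 and 8.53 in PMSG-treated WT. In untreated oviducts it gave 2.69, 2.61 and 2.46 in ESR1KO, against 6.97, 7.14 and 7.37 in WT. All 6 ESR1KO arrays were near background, and every WT array was above every ESR1KO array. The log2 difference was -6.51 ± 0.32 (SE) for PMSG-treated ESR1KO minus PMSG-treated WT and -4.57 ± 0.13 for ESR1KO minus WT. These folds are uncertain in size, as are those of Synpr, Slc6a2 and Pak3 below, because 1 group lies near background, where the correction compresses weak signals. Among WT oviducts the PMSG-treated arrays were higher, with a mean of 9.14 ± 0.55 in PMSG-treated WT and 7.16 ± 0.20 in WT (SD, n = 3 each) and no overlap. That difference was 1.98 ± 0.34, and 2.28 without PMSG-treated WT replicate 3. In ESR1KO oviducts the means were 2.62 ± 0.09 with PMSG and 2.59 ± 0.12 without it (SD, n = 3 each), a difference of 0.04 ± 0.09 with overlapping arrays.

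Synpr encodes synaptoporin, a vesicle membrane protein of the synaptophysin family. It ran opposite to Syn2 between the genotypes. Its probe set 1423640_at gave 7.80, 7.09 and 7.86 in PMSG-treated ESR1KO, against 3.36, 3.04 and 2.91 in PMSG-treated WT. Without PMSG it gave 7.87, 7.56 and 7.31 in ESR1KO, against 3.30, 2.94 and 3.02 in WT. Here the 6 WT arrays were the ones near background, which leaves the size of the folds uncertain, and all ESR1KO arrays lay above them. On the log2 scale the difference was 4.48 ± 0.28 for PMSG-treated ESR1KO minus PMSG-treated WT and 4.49 ± 0.19 for ESR1KO minus WT. PMSG moved neither genotype by more than the spread of its arrays, with differences of 0.02 ± 0.17 in WT and 0.00 ± 0.30 in ESR1KO.

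**Figure D1:**
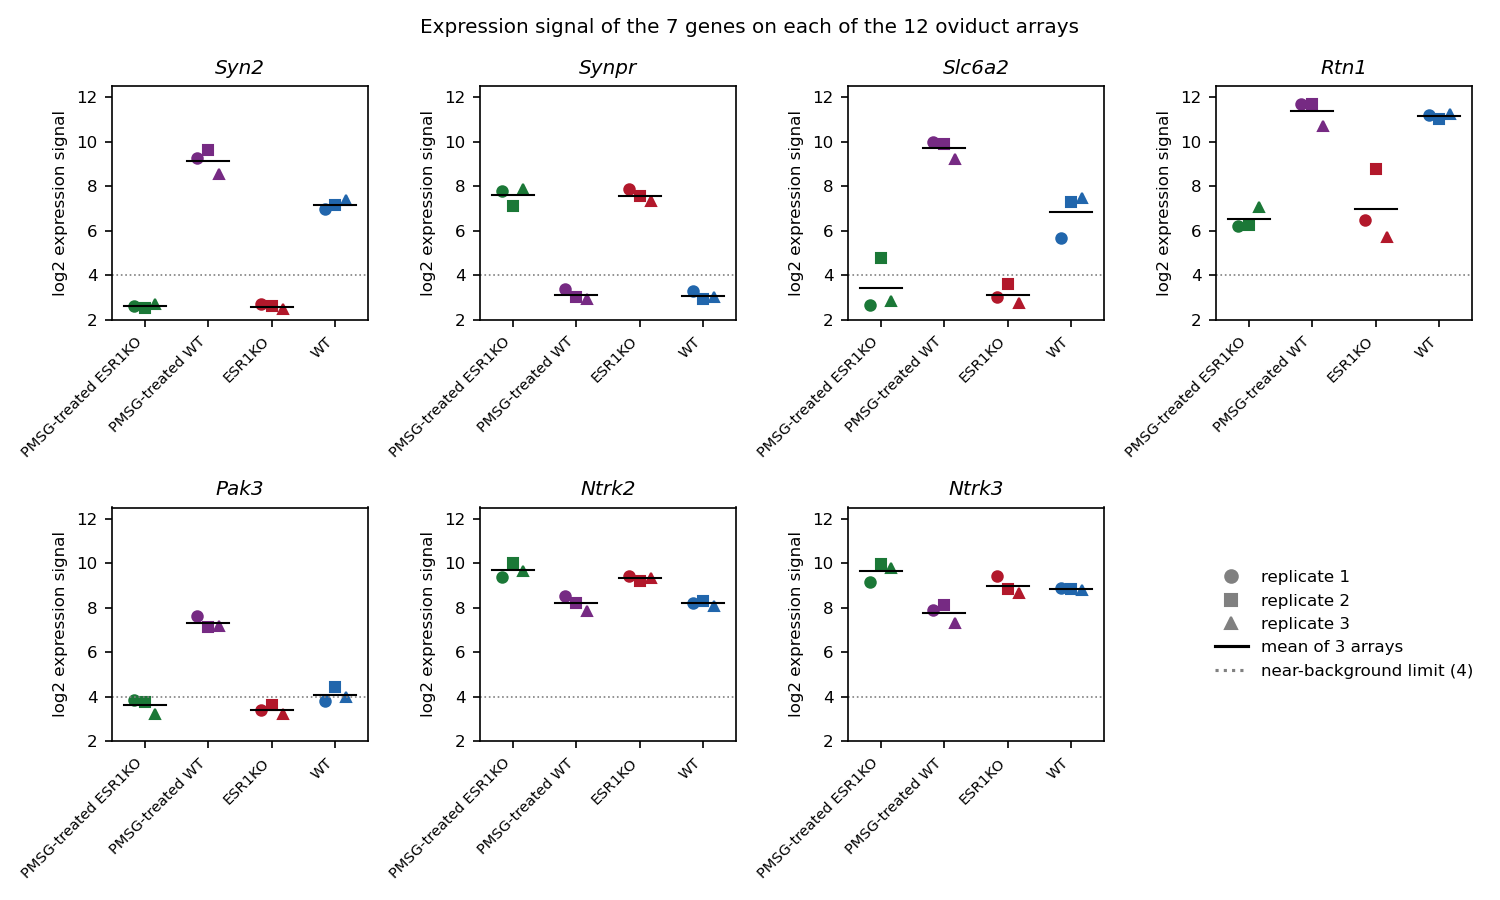
Log2 expression signal (vertical axis) of each of the 7 genes in the 4 groups, 1 point per array and a bar for the mean of 3 arrays. Syn2, Slc6a2 and Rtn1 were lower and Synpr and Ntrk2 higher in ESR1KO with and without PMSG, whereas Pak3 stood high in PMSG-treated WT, between 7.14 and 7.62, and at or under 4.43 on all other arrays.

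The bases upstream of the transcription starts of Syn2 and Synpr are shown because the pair moved in opposite directions with the genotype. They are 250 bases each from RefSeq on build GRCm38.p6, which held such windows for 5 of the 7 genes (11 windows in all). Capitals mark a GC box (GGGCGG), searched on both strands, a site that binds transcription factors of the Sp family, through which estrogen receptors are known to act on some genes. RefSeq gives 2 starts for each gene, and the second windows (chr6:115238744-115238993 and chr14:13453708-13453957, both on the plus strand) held no match to any motif searched and are not shown. The Syn2 window is chr6:115134652-115134901 on the plus strand, and the Synpr window is chr14:13284530-13284779 on the plus strand.
Syn2: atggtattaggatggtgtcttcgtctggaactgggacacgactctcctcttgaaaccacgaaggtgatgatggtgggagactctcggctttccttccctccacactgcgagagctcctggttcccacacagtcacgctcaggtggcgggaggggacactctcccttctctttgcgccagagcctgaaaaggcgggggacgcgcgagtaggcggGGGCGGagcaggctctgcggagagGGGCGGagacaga
Synpr: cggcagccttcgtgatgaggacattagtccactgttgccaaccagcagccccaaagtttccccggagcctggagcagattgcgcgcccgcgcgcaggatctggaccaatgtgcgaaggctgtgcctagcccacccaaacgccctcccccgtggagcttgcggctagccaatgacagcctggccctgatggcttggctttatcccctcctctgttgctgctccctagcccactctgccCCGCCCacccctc
The Syn2 window holds GC boxes that begin 37 and 13 bases before the start, and the Synpr window 1 on the opposite strand that begins 13 bases before it. A GC box occurred in 4 of the 11 windows of these genes, against 32.7% of 32851 such windows of all genes. The full estrogen response element (GGTCANNNTGACC), to which the receptor binds as a dimer, was searched on both strands and lay in 0 of the 11 windows of these genes, against 0.0639% of all windows. The AP-1 site (TGANTCA, in 6.75% of all windows) and the cAMP response element (TGACGTCA, in 1.55%) were also in 0 of the 11 windows. At these rates 0 of 11 is the likeliest outcome for each motif, so that nothing is read from their absence.

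Slc6a2 encodes the norepinephrine transporter, which takes the transmitter back up from the synapse of sympathetic nerves. Its probe set 1460129_at gave 2.64, 4.76 and 2.86 in PMSG-treated ESR1KO, against 9.99, 9.88 and 9.20 in PMSG-treated WT. In untreated oviducts it gave 3.00, 3.59 and 2.73 in ESR1KO, against 5.69, 7.29 and 7.49 in WT. The genotypes did not overlap in either pair, and 5 of 6 ESR1KO arrays were near background. In log2 units the difference was -6.27 ± 0.72 (SE) for PMSG-treated ESR1KO minus PMSG-treated WT, and -6.94 without PMSG-treated ESR1KO replicate 2, the array at 4.76. For ESR1KO minus WT it was -3.72 ± 0.62, and -4.28 without WT replicate 1, the array at 5.69. In WT oviducts Slc6a2 averaged 9.69 ± 0.43 with PMSG and 6.82 ± 0.99 without it (SD, n = 3 each), a difference of 2.87 ± 0.62 with no overlap. In ESR1KO the difference was 0.31 ± 0.72, and -0.36 without PMSG-treated ESR1KO replicate 2, so that it had no stable sign. Whole oviduct is a mixture of cells, and fewer cells of a type and less RNA per cell cannot be told apart in any of these results.

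Rtn1 encodes reticulon 1, a protein of the endoplasmic reticulum membrane that is abundant in neurons and neuroendocrine cells. Its probe set 1429761_at gave 6.22, 6.24 and 7.08 in PMSG-treated ESR1KO, against 11.69, 11.68 and 10.72 in PMSG-treated WT. Without PMSG it gave 6.48, 8.76 and 5.73 in ESR1KO, against 11.21, 11.03 and 11.25 in WT. All 12 arrays were above the near-background limit, and the genotypes did not overlap in either pair. The array at 8.76, untreated ESR1KO replicate 2, is also the ESR1KO array on which Esr1 was highest. The log2 difference was -4.85 ± 0.43 for PMSG-treated ESR1KO minus PMSG-treated WT. For ESR1KO minus WT it was -4.17 ± 0.91, with -5.06 without that array and -3.54 without ESR1KO replicate 3, the array at 5.73. PMSG made no difference beyond the spread of the arrays in WT (0.20 ± 0.33). In ESR1KO the difference was -0.47 ± 0.95, which turned to 0.41 without replicate 2 of the untreated group and was -1.11 without its replicate 3.

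RefSeq lists 3 starts for Rtn1, and the upstream windows of a pair of them are shown since they hold different motifs. Capitals mark GC boxes in the first and a nuclear receptor half-site (AGGTCA, searched on both strands, and part of some full estrogen response elements) in the second. They are chr12:72236728-72236977 and chr12:72409055-72409304, both on the minus strand and written 5′ to 3′ along the gene.
Rtn1, first: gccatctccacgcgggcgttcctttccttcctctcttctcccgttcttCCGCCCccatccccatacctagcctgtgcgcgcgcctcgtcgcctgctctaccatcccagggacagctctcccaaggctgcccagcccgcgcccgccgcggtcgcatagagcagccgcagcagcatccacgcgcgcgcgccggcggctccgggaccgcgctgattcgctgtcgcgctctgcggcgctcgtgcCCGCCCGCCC
Rtn1, second: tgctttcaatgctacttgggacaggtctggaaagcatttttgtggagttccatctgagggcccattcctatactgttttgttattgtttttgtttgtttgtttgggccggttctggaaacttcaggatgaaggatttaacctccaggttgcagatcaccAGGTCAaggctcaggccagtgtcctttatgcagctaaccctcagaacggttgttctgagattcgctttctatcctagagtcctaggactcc
In the first window 3 GC boxes on the opposite strand begin 202, 10 and 6 bases before the start, the last 2 of them overlapping, and 72.4% of its bases are G or C, against a median of 52.4% over all windows. In the second window the half-site begins 91 bases before the start. It was the 1 window with a half-site among the 11 of these genes, and 14% of all windows hold one. The arrays do not show which start the measured RNA came from.

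Pak3 encodes p21-activated kinase 3, which acts downstream of the GTPases Rac and Cdc42 on the actin skeleton and is known for its part in dendritic spines. Its probe set 1417924_at gave 3.87, 3.76 and 3.22 in PMSG-treated ESR1KO, against 7.62, 7.14 and 7.19 in PMSG-treated WT. In untreated oviducts it gave 3.39, 3.63 and 3.23 in ESR1KO, against 3.80, 4.43 and 4.00 in WT. Only PMSG-treated WT stood clear of the near-background limit. On the log2 scale the difference was -3.71 ± 0.25 for PMSG-treated ESR1KO minus PMSG-treated WT and -0.66 ± 0.22 for ESR1KO minus WT, where the groups were parted by 0.17 and both lay at the limit. For PMSG-treated WT minus WT it was 3.25 ± 0.24, and for PMSG-treated ESR1KO minus ESR1KO 0.20 ± 0.23 with overlapping arrays. The PMSG difference in ESR1KO minus that in WT was thus -3.05 ± 0.34.

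Ntrk2 encodes TrkB, the receptor of the neurotrophins BDNF and NT-4. Its probe set 1420838_at gave 9.39, 9.99 and 9.64 in PMSG-treated ESR1KO, against 8.52, 8.22 and 7.87 in PMSG-treated WT. Without PMSG it gave 9.44, 9.20 and 9.35 in ESR1KO, against 8.19, 8.30 and 8.09 in WT. The genotypes did not overlap in either pair, and all arrays were well above background. In log2 units the difference was 1.47 ± 0.26 for PMSG-treated ESR1KO minus PMSG-treated WT, a 2.77-fold higher signal, and 1.14 ± 0.09 for ESR1KO minus WT, 2.20-fold. The difference with PMSG was 0.01 ± 0.20 in WT and 0.34 ± 0.19 in ESR1KO, with overlapping arrays in both.

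Ntrk3 encodes TrkC, the receptor of neurotrophin-3. Its probe set 1433825_at gave 9.17, 9.96 and 9.79 in PMSG-treated ESR1KO, against 7.90, 8.12 and 7.32 in PMSG-treated WT. Without PMSG it gave 9.42, 8.85 and 8.68 in ESR1KO, against 8.90, 8.86 and 8.78 in WT. The genotypes were apart with PMSG and overlapped without it. The log2 difference was 1.86 ± 0.34 (3.63-fold) for PMSG-treated ESR1KO minus PMSG-treated WT and 0.14 ± 0.23 for ESR1KO minus WT. In WT the signal was lower with PMSG, at 7.78 ± 0.42 in PMSG-treated WT and 8.85 ± 0.06 in WT (SD, n = 3 each), a difference of -1.07 ± 0.24, or -0.83 without PMSG-treated WT replicate 3. In ESR1KO the difference was 0.66 ± 0.33 with overlapping arrays. The PMSG difference in ESR1KO minus that in WT was 1.72 ± 0.41. For the 7 genes together 1 such difference of differences was called, that of Pak3, beside 0.65% of the aligned probe sets.

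**Figure D2:**
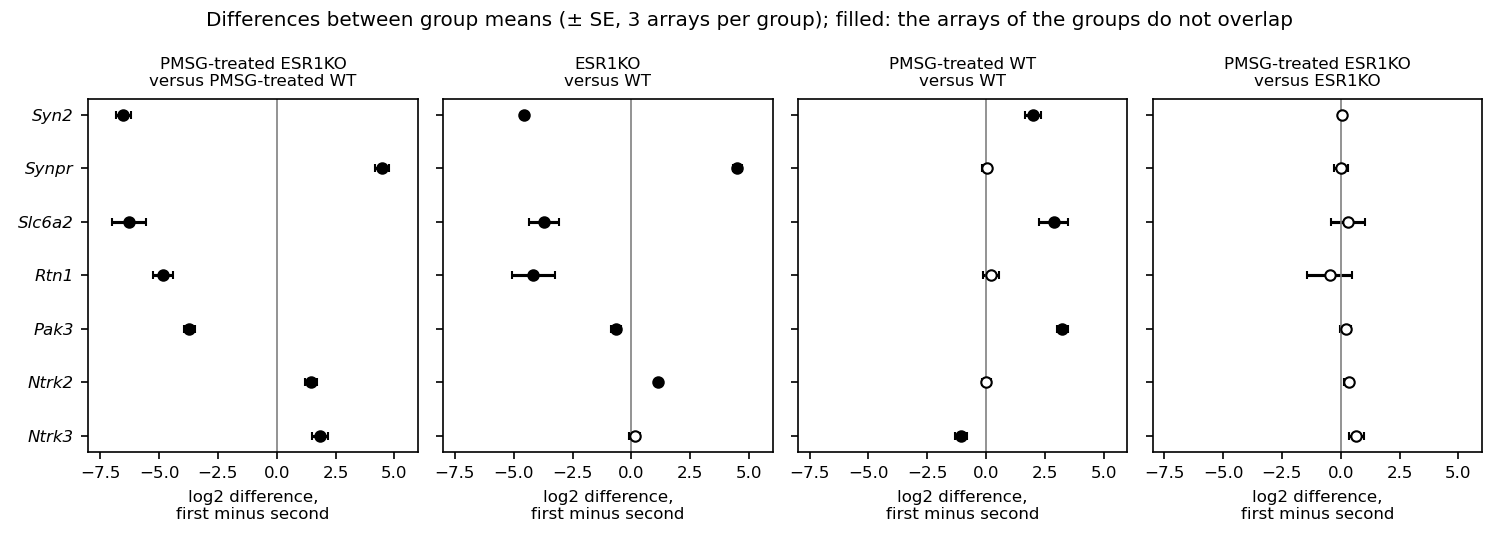
Difference of group means on the log2 scale (horizontal axis, with the SE from the spread of 3 arrays per group) for the 7 genes in 4 comparisons, filled where the arrays of the groups do not overlap. All 7 are filled between the PMSG-treated genotypes, beside 19.6% of all probe sets without overlap. For PMSG-treated ESR1KO versus ESR1KO 0 of 7 are filled, beside 21.4% of the aligned probe sets. The study chose the 7 genes on these arrays, so that nothing is read from these counts.

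The 7 genes fell into patterns by the order of their group means. For Syn2 and Slc6a2 the order was PMSG-treated WT, then WT, then both ESR1KO groups, which did not differ beyond their spread. For Rtn1 both WT groups stood above both ESR1KO groups, and within each genotype the PMSG-treated and untreated arrays overlapped. Synpr and Ntrk2 had the reverse order, with both ESR1KO groups above both WT groups and overlapping arrays within each genotype. Pak3 was high in PMSG-treated WT, followed by WT, whose arrays overlapped with those of PMSG-treated ESR1KO, and by ESR1KO, which overlapped with PMSG-treated ESR1KO as well. Ntrk3 was low in PMSG-treated WT, and the arrays of its untreated ESR1KO overlapped with those of WT and of PMSG-treated ESR1KO.

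A difference was called where the adjusted p of limma's test (Benjamini-Hochberg) was under 0.05 and the groups differed at least 2-fold. With PMSG, all 7 genes were called between ESR1KO and WT, 3 higher and 4 lower, beside 2.76% of all probe sets of the table called higher and 1.72% called lower, 4.48% together. Of the 2000 aligned probe sets, 48.4% were called there. Since the study's own test on these arrays chose the genes, nothing is read from the count of 7. For ESR1KO versus WT 5 were called (Pak3 and Ntrk3 were not), beside 18.4% of the 2000 aligned probe sets, which the study had also chosen. That count fell to 2 without ESR1KO replicate 1, WT replicate 2 or WT replicate 3, and with the unmoderated model, and to 3 without ESR1KO replicate 3 and with the 6 arrays of the pair alone. Syn2 and Pak3 were called for PMSG-treated WT versus WT, beside 0.251% of all probe sets and 3.85% of the aligned ones. None of the 7 was called for PMSG-treated ESR1KO versus ESR1KO, beside 0.1% of the aligned probe sets. The arrays of the genotypes did not overlap for 7 of 7 genes with PMSG, beside 19.6% of all probe sets, and for 6 of 7 without it, beside 78.5% of the aligned ones. Arrays with and without PMSG did not overlap for 4 of 7 genes in WT, beside 13.5% of all probe sets, and for 0 of 7 in ESR1KO, beside 21.4% of the aligned ones. The comparison of PMSG-treated WT with WT and that of the genotypes under PMSG share 3 arrays, those of PMSG-treated WT, so that the signs of Syn2, Slc6a2, Pak3 and Ntrk3 in the pair are not separate observations.

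Several of these genes have more than 1 probe set, and the others could be read on the 3 untreated ESR1KO arrays only. There, bacterial control sequences gave 1.74 to 2.69, a measure of background. The other 5 probe sets of Syn2 had means from 1.89 to 4.32, of which 2 reached 4. The other 3 of Slc6a2 were all under 4. For Pak3 the 3 others had means of 5.07, 6.37 and 6.22, above the limit, whereas the one followed on all arrays was at 3.41, so that Pak3 RNA was present in untreated ESR1KO oviducts where 1417924_at was near background. The values of those 3 probe sets in the other groups were not analysed here. For Ntrk2, 1435196_at gave 9.87, 9.01 and 9.19 on these arrays, beside 9.44, 9.20 and 9.35 of the followed one, and the other 6 were under 4. Ntrk3 had 5 of 8 probe sets at 4 or above, 1 of them the followed one, with a mean of 8.98. The others that reached 4 were much weaker, with means from 4.1 to 5.1. Synpr and Rtn1 had 1 probe set each.

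**Figure D3:**
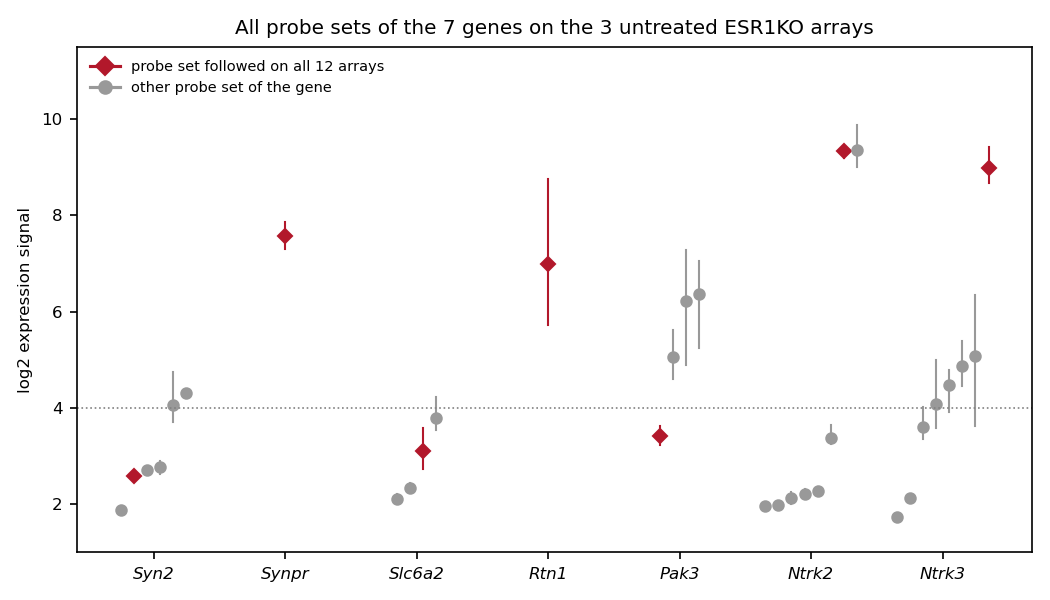
Log2 expression signal (vertical axis) of every probe set of the 7 genes on the 3 untreated ESR1KO arrays, with a marker for the mean and a line from the lowest to the highest array. The followed probe set (diamond) of Pak3 lies under the dotted limit of 4 while the other 3 lie above it.

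Lists of genes with related functions give the setting of these 7. Of 212 listed genes 184 were named on the array, but only 21 besides the 7 could be aligned, and these too were picked by the study on the same arrays. The followed probe set was not always the strongest of its gene in untreated ESR1KO, as with Homer2 (7.26, against 9.22 for another). Between the PMSG-treated genotypes, 9 of the 21 were called higher and 3 lower, beside 48.4% of all aligned probe sets. For ESR1KO versus WT 4 were called higher and 3 lower, beside 18.4% of aligned probe sets, and for PMSG-treated WT versus WT 1 each, beside 3.85%. None was called for PMSG-treated ESR1KO versus ESR1KO, beside 0.1%.

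Among the 43 genes of synaptic vesicles and transmitter release on the array, 24 had a probe set at 4 or above in untreated ESR1KO, and 4 could be followed besides Syn2 and Synpr. Rims1, a scaffold of the active zone where vesicles fuse, averaged 2.28 ± 0.45 in PMSG-treated ESR1KO, against 4.11 ± 0.57 in PMSG-treated WT (SD, n = 3 each), and 2.48 ± 0.41 in ESR1KO and 4.41 ± 0.34 in WT, with log2 differences of -1.83 and -1.93. Both ESR1KO groups were thus near background, as they were for Syn2. Sh3gl2, endophilin A1, which takes part in vesicle retrieval, had log2 differences of 1.38 with PMSG and 1.10 without it and was called in both, on the side of Synpr. Rims2 and Doc2b were not called in any comparison. Of 42 receptors, scaffolds and adhesion molecules of the synapse 20 had a probe set at 4 or above in untreated ESR1KO and 9 could be followed. Gria1, a subunit of AMPA-type glutamate receptors, averaged 2.94 ± 0.09 in PMSG-treated ESR1KO, against 8.47 ± 0.43 in PMSG-treated WT, and 2.62 ± 0.34 in ESR1KO and 5.03 ± 0.64 in WT (SD, n = 3 each). It was called with differences of -5.54 and -2.41, and of 3.44 for PMSG-treated WT versus WT, so that it had the order of group means of Syn2 and Slc6a2. Gabrb1, a GABA-A receptor subunit, was called lower with PMSG (-1.99), and its difference of -3.28 without PMSG was not called. Lrrtm1, an adhesion molecule of excitatory synapses, was called higher with PMSG (4.88), with 2.21 without it, not called. Its PMSG-treated WT arrays averaged 3.05 ± 1.07 (SD, n = 3), near background, which leaves the size of that fold uncertain. Grip1, an AMPA receptor scaffold, was called higher in both pairs (2.08 with PMSG), as was Homer2, a scaffold of metabotropic glutamate receptors (1.75 and 2.10). Lrrtm4 was called lower in PMSG-treated WT than in WT (-1.76).

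The neurotrophin list had 15 of 20 genes at 4 or above in untreated ESR1KO. Besides both receptors 1 could be followed, Ntf5, the ligand NT-4 of TrkB. It averaged 6.42 ± 0.32 in PMSG-treated ESR1KO, against 5.61 ± 0.09 in PMSG-treated WT (SD, n = 3 each), and its log2 differences of 0.82 with PMSG and 0.56 without it were not called. The GDNF family, whose ligands also sustain neurons, had 2 such genes. Artn, the ligand artemin, was called higher with PMSG (3.09), with 0.48 without PMSG, not called. Artn averaged 6.48 ± 1.07 in PMSG-treated ESR1KO, against 3.39 ± 0.32 in PMSG-treated WT (SD, n = 3 each). The latter lay near background, so that the size of this fold is uncertain too. Gfra2, the receptor of neurturin, was likewise called higher with PMSG (1.78), with 0.61 without it. The followed probe set of Gfra2 averaged 4.76 in untreated ESR1KO, where another of its probe sets averaged 8.44. The difference between the pairs, the genotype by PMSG interaction, was 2.61 for Artn and 1.17 for Gfra2 and was not called, nor was that of Ntrk3.

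Maob, monoamine oxidase B, which breaks down monoamines, was the 1 gene besides Slc6a2 in its list that could be followed, and it was called higher with PMSG (1.73), with 1.30 without it, not called. Of the reticulons, Rtn2 was called lower in ESR1KO than in WT (-1.06), with 0.37 in the PMSG-treated pair, and Rtn4 (Nogo) differed by -0.55 and -0.28, under 2-fold. Neither moved by as much as Rtn1. Rhoj, a GTPase that binds PAK kinases, was called higher in ESR1KO in both pairs (1.20 and 1.01). Rhou was not called. None of the adrenergic receptors and no other member of the SLC6 transporter list could be followed.

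**Figure D4:**
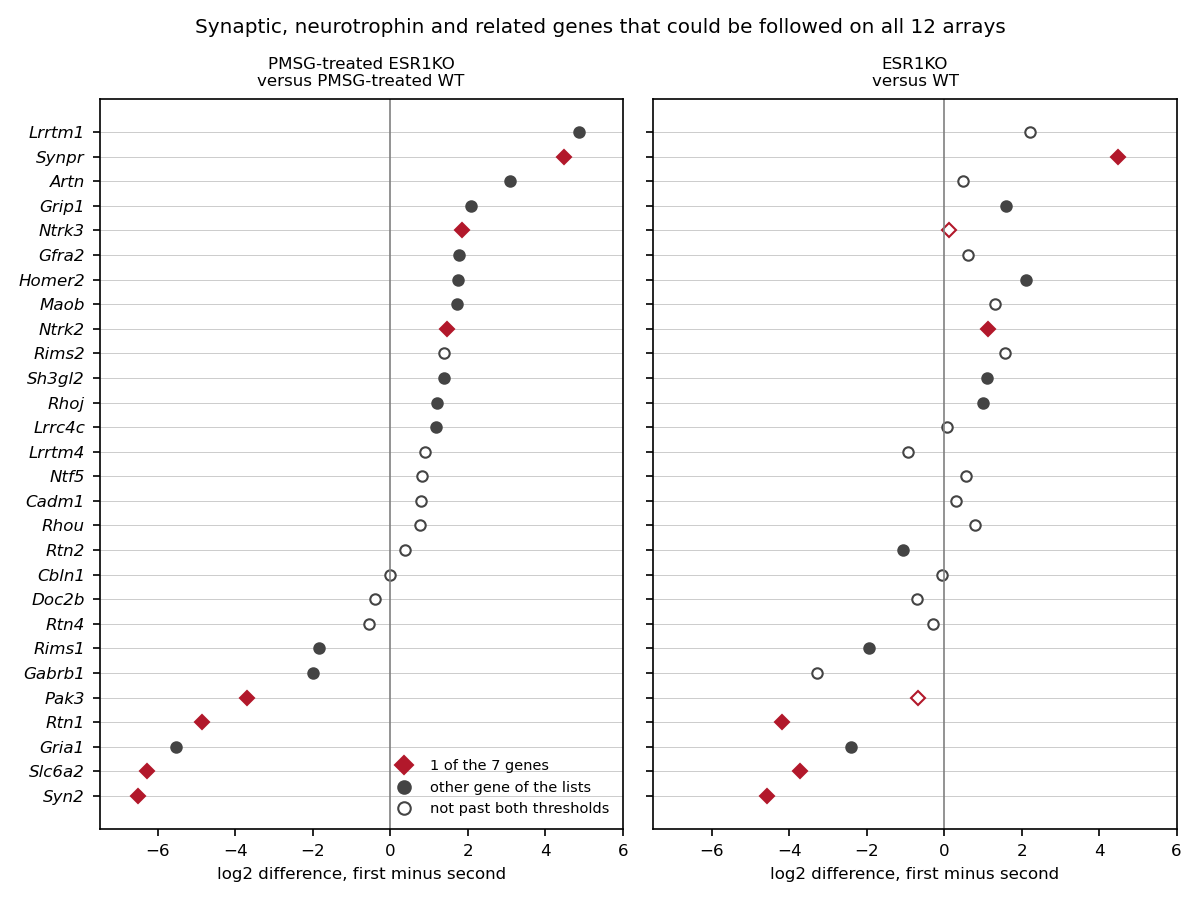
Log2 difference (horizontal axis) of the 28 synaptic, neurotrophin and related genes that could be aligned, for PMSG-treated ESR1KO minus PMSG-treated WT on the left and ESR1KO minus WT on the right, filled where called and with diamonds for the 7 genes. Gria1 lies with Syn2, Slc6a2 and Rtn1 at the low end of the left panel, between -6.51 and -4.85.

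Markers of nerve cells were mostly near background on the untreated ESR1KO arrays. Of 22 markers of neurons and autonomic nerves named there, 21 were under 4 in every probe set, among them Tubb3 (2.31), Th (2.15), Dbh (2.41) and Snap25 (3.06), and the summed log2 signal of the list was 55.6 to 60.2 on the 3 arrays. The rest of the list was not analysed here in the other groups. The exception was Nefl, a neurofilament, at 4.85. Nefl and Rbfox3 were the pair of neuron markers that could be followed. Nefl averaged 4.10 ± 0.97 in PMSG-treated ESR1KO, against 1.92 ± 0.07 in PMSG-treated WT, and 4.85 ± 0.87 in ESR1KO and 1.90 ± 0.03 in WT (SD, n = 3 each). Rbfox3 averaged 5.01 ± 0.47 in PMSG-treated ESR1KO, against 2.49 ± 0.42 in PMSG-treated WT, and 3.33 ± 1.42 in ESR1KO and 2.12 ± 0.08 in WT. Nefl was called higher in ESR1KO in both pairs, whereas Rbfox3 was called in the PMSG-treated pair and its difference of 1.21 in the untreated pair, between means near background, was not. The called differences had the sign of Synpr, opposite to Syn2, Slc6a2 and Rtn1. Of 11 glial markers 4 were at 4 or above, among them S100b (8.33) and Erbb3 (10.7), and Sox10 was at 3.47. Mbp, a myelin protein, averaged 6.74 ± 0.67 in PMSG-treated ESR1KO, against 4.20 ± 0.39 in PMSG-treated WT (SD, n = 3 each), and was called, whereas its difference of 0.91 in the untreated pair was not. The followed probe set of Mbp averaged 4.97 in untreated ESR1KO, where another of its probe sets averaged 8.48. Pmp22, another myelin protein, was called in neither pair (0.71 and 0.49).

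Of markers of other cells, 7 of 7 of the secretory epithelium (Ovgp1 at 15.9) were at 4 or above in untreated ESR1KO. So were 8 of 9 of ciliated cells (Foxj1 at 11.7) and 9 of 9 of smooth muscle (Acta2 at 14.8). Mesothelium (5 of 5), fibroblasts (6 of 6) and endothelium (6 of 6) were also complete. Fewer were at 4 or above for ovary (4 of 9) and leukocytes (3 of 6). Fat around the oviduct had 1 of 5 and neuroendocrine cells 1 of 10. None of the epithelial markers could be followed on the other arrays. Of those that could, Pecam1, of endothelium, was called lower in ESR1KO in both pairs (-1.26 and -3.24), Emcn in the untreated pair (-1.57, with -0.31 under PMSG) and Kdr in neither (-0.23 under PMSG and -0.51 without it). The mesothelial gene Lrrn4 was called higher in both (1.39 each). Of 3 fibroblast markers Lum was lower (-2.10 and -2.44) and Pdgfra higher (1.49 and 1.12) in both pairs. The followed probe set of Col1a2 differed by -1.13 and -2.34, called without PMSG only. It averaged 4.41 in untreated ESR1KO, where another probe set of Col1a2 averaged 14.01. Its differences are therefore those of a weak probe set and are not read as the level of Col1a2 RNA. The smooth muscle gene Actg2 differed by -1.64 and -2.26, called without PMSG only, and Csf1r, of macrophages, by 1.62 and 0.61, called with PMSG only. The part of any of these cells in the results for the 7 genes was not tested.

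The profile of each gene over the 12 arrays was also compared with that of all aligned genes by Pearson's r, as a description. The aligned genes were chosen by the study because they differed between these groups, and these values come with no test. Nearest to Syn2 were Cldn23 (0.986), Arsi (0.985) and Pacsin1 (0.984), and nearest to Slc6a2 were Aqp5 (0.976), Edem1 (0.975) and Klk1b21 (0.973). All 6 were highest in PMSG-treated WT and next in WT. For Rtn1 they were Cyp26a1 (0.989), Csf3 (0.987) and Cbs (0.982), and for Pak3 Kcnma1 (0.981), Col25a1 (0.980) and Klk1b1 (0.977). Of the genes higher in ESR1KO, Synpr was nearest to Avpr1a (0.990), Capn6 (0.980) and Il33 (0.979), Ntrk2 to Pappa2 (0.977), Maob (0.972) and Serping1 (0.969), and Ntrk3 to Slc24a3 (0.988), Col13a1 (0.974) and C1s1 (0.973). Sizes differed where profiles were alike: Klk1b1 averaged 8.01 in PMSG-treated WT, against 2.01 in WT, whereas Kcnma1 averaged 3.97 in PMSG-treated WT, against 2.54 in WT.

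**Figure D5:**
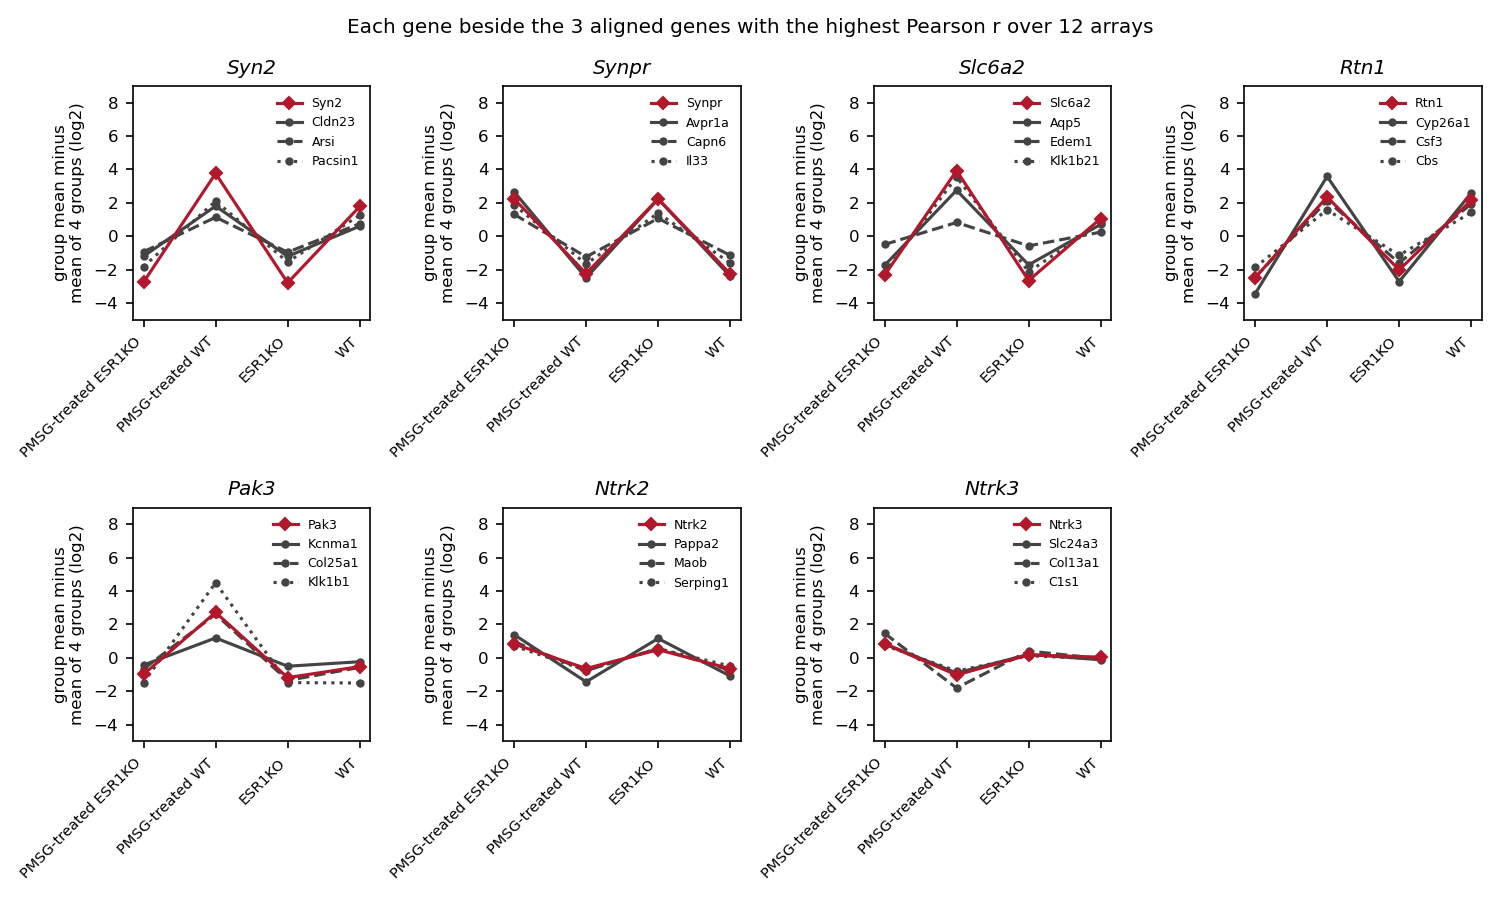
Mean log2 expression signal of each gene in the 4 groups, minus the mean of those 4 values (vertical axis), beside the 3 aligned genes with the highest Pearson r over the 12 arrays. The lines join groups for reading only. Klk1b1 spans more than Pak3 and Kcnma1 less, at r of 0.977 and 0.981.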

How the data were processed

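Signals were deposited on a log2 scale after the authors had run GC-RMA in Partek 6.6: background correction by probe base content, then quantile normalization, then summary of a probe set's probes by median polish. No detection calls were used, and no other array files were analysed here. Array precision is limited by 3 arrays per group.

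Row names of the table hold for the 3 untreated ESR1KO columns but not for the other 9. Their rows were found through the study's supplementary gene list, whose fold changes and p-values served as keys only: 1997 rows were matched to within 7.92e-05 on the log2 scale and 0.299% of the p-values, 18 of them with a second candidate. Symbols, not used in the match, agreed for 1896 of 1903 rows (99.6%). Syn2, Synpr and Slc6a2 were located from 2 printed fold changes each, with 1 row of the 9 arrays fitting. For them the symbol was used: their untreated ESR1KO rows were sought only among the 6, 1 and 4 probe sets of the gene.

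Group means and SDs, differences with the SE from both groups' spread, and counts of calls were computed. The moderated test of limma 3.58.1 (R 4.3.3), with a mean-variance trend, was fitted over all rows of the 9 arrays. Comparisons with untreated ESR1KO were fitted on the 2000 aligned rows with the prior of that fit (2.87 degrees of freedom) and adjusted as for all probe sets, so that their adjusted p is an upper bound. The fit and the matching were tested on simulated data. Each array was left out in turn, and other fits are named in the closing section.

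Members and gene lists were chosen with earlier results of these data known. Named were all 7 genes and Esr1, up to 4 called genes per list and comparison by size (or up to 2 by signal where none was called), defining markers, and the 3 aligned genes with the highest Pearson r to each of the 7. Markers named with their levels were picked from their lists after their values were seen. Promoter windows come from RefSeq (GRCm38.p6), and 34958 probe sets have 1 symbol, 932 several and 9211 none in the annotation.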

Additional observations from a re-analysis of the deposited data

Results flagged for a closer look

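The response of Pak3 to PMSG differed between the genotypes in the fit over the aligned probe sets: the PMSG difference in ESR1KO minus that in WT was -3.05 on the log2 scale. PMSG-treated ESR1KO minus ESR1KO was 0.20, whereas PMSG-treated WT minus WT was 3.25. It is marked because this difference of differences passed the adjusted threshold of limma's test, but Pak3 came from the study's own list on these arrays, so that the call is a description. It was lost in 10 of the 18 alternatives run, 8 of them with 1 array fewer among WT, ESR1KO or PMSG-treated ESR1KO, 1 without PMSG-treated WT replicate 1 and 1 with the unmoderated model. The group means put PMSG-treated WT alone above the near-background limit by more than its spread, and the other probe sets of Pak3 could not be followed.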

How the results depend on the processing

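All 196 recomputed differences of the 7 genes (quantile normalization repeated, or 1 array of the pair left out) moved by less than 1 SD of the arrays. No called difference changed sign. Leaving out 1 of 3 arrays cannot move a difference by 1 SD, so that this limit shows no stability for those runs. For Rtn1, ESR1KO minus WT went from -4.17 to -5.06 without ESR1KO replicate 2. All 7 genes remained called between the PMSG-treated genotypes in 17 of 17 alternatives, beside 48.4% of the aligned probe sets called in the main fit. The study's own test on these arrays chose the genes, so that this count is a description only. Other calls of single genes were less stable: Syn2 for PMSG-treated WT against WT was lost in 11 of 17, and for ESR1KO against WT the calls of Slc6a2 and Ntrk2 were lost in 6 of 20 each and that of Rtn1 in 5 of 20, under the unmoderated model (all 3), with the arrays compared alone (Slc6a2 and Rtn1) or with 1 array fewer. The arrays were ESR1KO replicates 1 and 3 and WT replicates 2 and 3 for Slc6a2, ESR1KO replicates 1 and 3 and each WT array for Ntrk2, and ESR1KO replicate 1 and WT replicates 2 and 3 for Rtn1. For Syn2 they were each WT array, each PMSG-treated ESR1KO array and PMSG-treated WT replicates 1 and 2. The interaction of Syn2, not called, was called without PMSG-treated WT replicate 3. For ESR1KO against WT, 2 to 5 of the 7 genes were called with 1 array left out, against 5 with all. The adjusted p of ESR1KO against WT is an upper bound, so that a lost call is not a failed test.

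Counts of called probe sets moved by over 1.5 times as follows, with the full range given for leaving out 1 array. The upper ends of 2 of those ranges, 2422 and 506, lay within 1.5 times. Between the PMSG-treated genotypes (2022 called), the unmoderated two-way model gave 1255, the 6 arrays compared alone 1313 and no fold minimum 3065, and leaving out 1 array gave 1248 (PMSG-treated ESR1KO replicate 3) to 2422 (PMSG-treated WT replicate 3). For ESR1KO against WT (367), the unmoderated model gave 141, the arrays compared alone 147, and leaving out 1 array 107 (WT replicate 2) to 506 (PMSG-treated WT replicate 3). For PMSG-treated WT against WT (113), they gave 19 and 36, a mean signal of at least 4 gave 179, and leaving out 1 array 41 (WT replicate 2) to 346 (PMSG-treated WT replicate 3). Chosen after the data were seen, leaving out ESR1KO replicate 2 and PMSG-treated WT replicate 3 together gave 346 there, 0 for PMSG-treated ESR1KO against ESR1KO and 31 for the interaction. For PMSG-treated ESR1KO against ESR1KO (2), no variance trend, the unmoderated model, the signal minimum and the arrays compared alone gave 0 each, and leaving out 1 array 0 to 6. For the interaction (13), the unmoderated model gave 1, and leaving out 1 array 1 (WT replicate 3 or PMSG-treated ESR1KO replicate 2) to 48 (PMSG-treated WT replicate 3). The cause of these shifts was not tested, beyond the fewer arrays in some fits.

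Same-numbered arrays correlated in their deviations from the group means between -0.12 and 0.36, with 8 of 18 pairs over 0.1. In none of the comparisons made were all 3 over 0.1, but between WT and PMSG-treated ESR1KO, which were not compared, all 3 were (0.12 to 0.31), so that shared handling by replicate number was neither shown nor settled, and no pairing was assumed. With the replicate block, PMSG-treated WT against WT gave 46 calls and the call of Syn2 was lost. The block changed no other call of the 7 genes. Levels near background, the single followed probe set of each gene and pools of mice limit all of these values.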
